A study of Arabidopsis thaliana with 6 samples.

Results

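The 38 genes described here encode the core of the messenger RNA decay machinery of Arabidopsis thaliana: the RNA exosome and its helper complexes, the XRN exonucleases, the decapping factors, the nonsense-mediated decay factors and 4 genes of deadenylation. They were taken by gene identifier from a list of known subunits, and the CAF1 deadenylases were left out. The rule used no measured value, but earlier results of these data were known when it was made. All 38 were among the 30457 features of the files and among the 18100 features that were tested. Poly(A) RNA had been sequenced from pooled ovules of sgd mutant plants (3 libraries) and of wild-type plants (3 libraries), grown in a greenhouse in long days. Both groups were in the qrt1 background, a mutation that keeps the pollen grains of one meiosis joined, and both covered stages FG1 to FG3, the first steps of embryo sac formation. The locus, allele and zygosity of sgd are not given in the sources used here, and the mutated gene's own transcript was therefore not checked. The series title concerns selective removal of mRNA at the passage from sporophyte to gametophyte, and the comparison asks whether transcripts of the decay machinery itself differed between sgd and wild-type ovules.

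In plants, as in other eukaryotes, most mRNAs lose their poly(A) tail first and are then degraded from either end. From the 5′ end, a decapping complex removes the cap and a cytoplasmic XRN enzyme digests the body. From the 3′ end, the exosome, a ring of RNase PH-type proteins under a cap of RNA-binding proteins, threads RNA to attached nucleases with the help of the SKI complex in the cytoplasm or of MTR4-type helicases in the nucleus. Nonsense-mediated decay feeds transcripts with premature stop codons into these routes.

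Where the values of 3 libraries of a genotype are listed, they are in the order of the library numbers. Values were deposited as FPKM, that is, fragments per kilobase of transcript scaled to the mapped fragments of the library. Depth, estimated from the steps of low FPKM values, was 12800000 to 23600000 fragments in sgd libraries and 26600000 to 41400000 fragments in wild-type libraries. The member with the fewest fragments, CSL4 in sgd library 1, had an estimated 170, a counting error of 7.67%. Library 1 of each genotype stood apart from libraries 2 and 3: the second principal component, with 30.8% of the variance, parted both from the rest, and the noncoding RNA locus AT3G06355 held 5.93% of summed FPKM in sgd library 1 and 8.33% in wild-type library 1, but at most 0.322% elsewhere. The 38 genes summed to 1056 FPKM in sgd library 1, against 1582 and 1634 FPKM in sgd libraries 2 and 3, and to 990 FPKM in wild-type library 1, against 1469 and 1507 FPKM in wild-type libraries 2 and 3. The 2 libraries of number 1 deviated together, while for numbers 2 and 3 the correlations did not tell which libraries belong together. Each comparison is given both without and with the library number as a block. All 8 ovule markers were present at 6.94 FPKM or more in every library, and they summed to 615 to 1175 FPKM in sgd libraries and 902 to 1890 FPKM in wild-type libraries. Among them ANT and BEL1, regulators of ovule and integument growth, were lower in sgd (limma adjusted p = 0.00577 and 0.00776), and with the block 5 were lower and 1 higher. Of 11 tested pollen genes 7 were higher in sgd, and with the block 7 were higher and 1, the gamete gene GEX2, was lower (limma adjusted p = 0.0472). HAP2, another gamete gene of that list, was not tested and had 0.16 to 0.48 FPKM in sgd libraries and 0.83 to 1.36 FPKM in wild-type libraries. The 15 pollen genes of that list summed to 87.7 to 189.6 FPKM in sgd libraries and 18.5 to 35.3 FPKM in wild-type libraries, with TIP1;3, MGH3 and DUO1 under 1 FPKM in every library and TIP1;3 listed at 0 in all sgd libraries. Of 5 tested embryo sac genes, EC1.1 and EC1.2 were lower in sgd in both fits and MYB98, a synergid gene, was under 1 FPKM in every library. The 6 embryo sac genes listed summed to 8.65 to 21.8 FPKM in sgd libraries and 19.7 to 36.9 FPKM in wild-type libraries. The part of these other cell types in the results below was not tested. In bulk ovules, fewer cells of a type and less RNA per cell cannot be told apart.

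Transcripts of the decay machinery were present in every library of both genotypes, and their changes spread less than those of all features. Most members stood above the median tested feature in wild type, but RRP6L3, PARN, RRP43 and SOV stood below it. The median member stood at 32.0 FPKM in sgd ovules and 29.3 FPKM in wild-type ovules, where the median of all tested features was 17.7 FPKM in sgd and 15.3 FPKM in wild type. Together the 38 genes made up 0.188% to 0.205% of summed FPKM in sgd libraries and 0.187% to 0.196% in wild-type libraries. None of the 38 was called higher and none lower (limma on log2(FPKM + 1), Benjamini-Hochberg adjusted p under 0.05 over all features), and 1, RRP6L3, had an unadjusted p under 0.05. Over all tested features the same test called 13.3% higher and 4.47% lower. With the library number as a block, 6 members were higher (RRP45A, RRP46, RRP6L1, RRP6L3, XRN2 and NOT1) and 2 lower (RRP42 and CCR4b), where the background was 26.5% higher and 14.3% lower. Both shares of members, 6 and 2 of 38, lay below that background.

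The intervals bound most of the changes. The 95% interval of the log2 change, sgd minus wild type, lay between -1 and 1 for 27 of 38 members, against 39.4% of all features and 43.0% of features with a mean of at least 5 FPKM. With the block this held for 37 of 38 members, all but CSL4, and for 61.6% of features. The log2 changes of the members had an SD of 0.29, against 0.91 over all features, and their median was 0.04. Over all features the deposited values had a median change of 0.13, so the members' median lay at -0.09 relative to it. Relative to that median, 34 of 38 members changed by less than 0.5, against 58.0% of features. Median-ratio scaling put the median of all features at -0.02. Directions depend on this shift. As deposited, 74.8% of all calls were higher in sgd, or 65.0% with the block. This share was 61.1% when all libraries were set to one total. Median-ratio scaling gave 50.5%, or 49.0% with the block, and quantile normalization gave 45.8%.

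**Figure D1:**
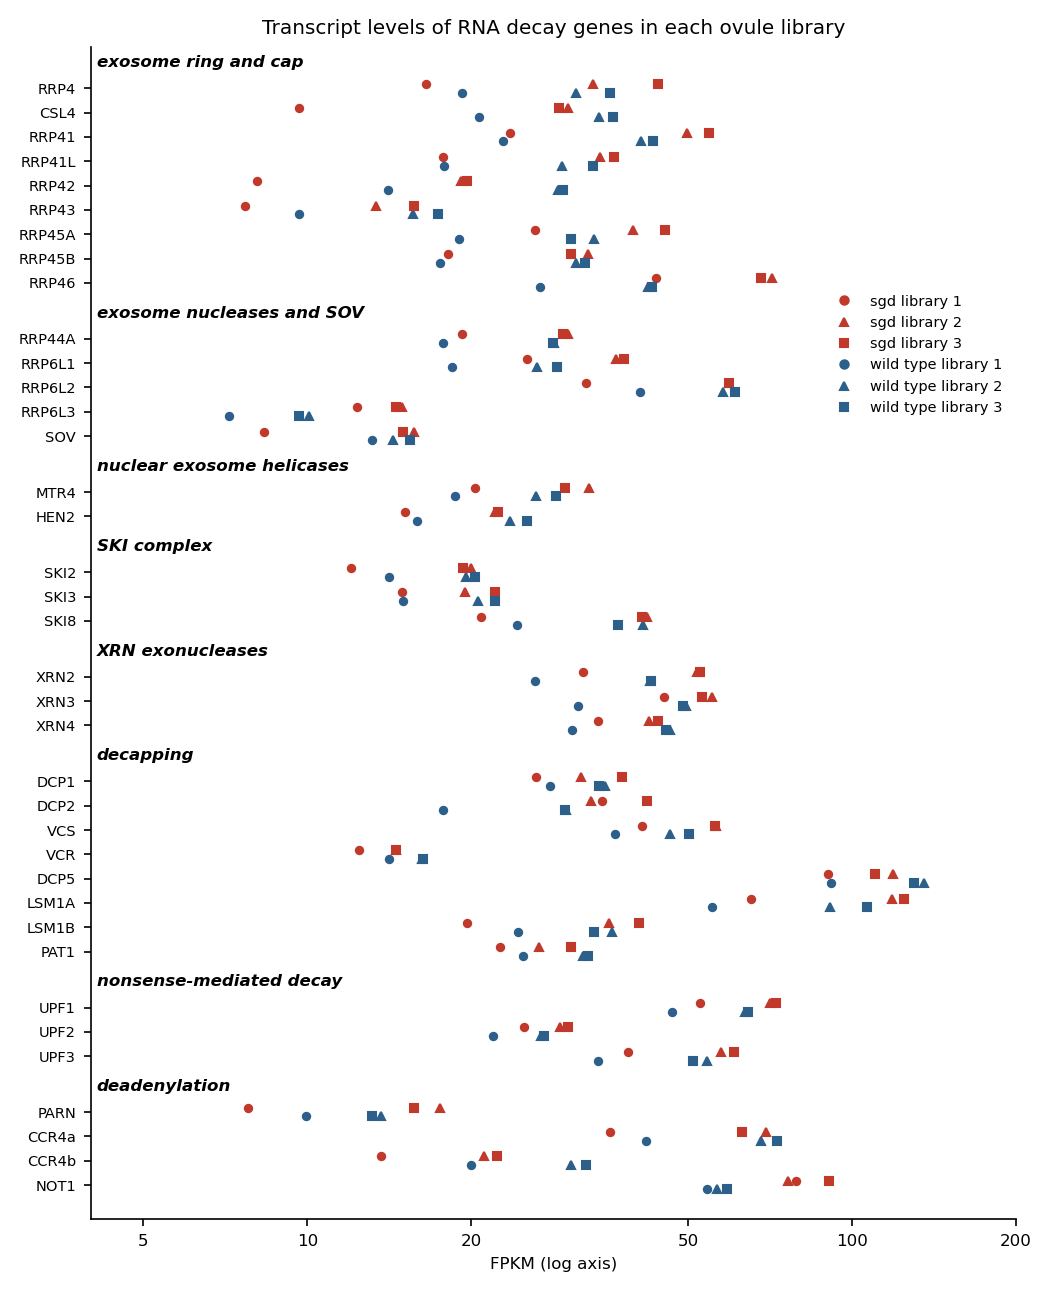
Level of each of 37 genes in each library, in FPKM on a log axis, grouped by complex, with sgd libraries in red above wild-type libraries in blue and the symbol shape giving the library number. Library 1 (circles) is the lowest of its genotype for most genes, and in RRP46, RRP6L3, DCP2 and NOT1 the 3 sgd points lie above the 3 wild-type points.

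In 4 members the 3 sgd values lay above the 3 wild-type values (RRP46, RRP6L3, DCP2 and NOT1), and in none did they lie below. Over all features 26.8% had such a gap with sgd higher and 8.80% with sgd lower. After median-ratio scaling, which takes out the shift of the median and the low totals of both replicate 1 libraries, 4 members had sgd higher (RRP45A, RRP46, RRP6L1 and RRP6L3) and 12 had sgd lower. Among these 12 were CSL4, RRP42, RRP43, RRP6L2, SOV, HEN2, SKI2, SKI3, DCP5, PAT1 and CCR4b. The background on that scale was 27.7% with sgd higher and 28.9% with sgd lower. Median-ratio scaling with the block called 3 members higher (RRP46, RRP6L3 and NOT1) and 4 lower (CSL4, RRP42, RRP43 and CCR4b), against 19.5% and 20.2% of features. Without both replicate 1 libraries, 7 were higher, the 6 named for the block and RRP41, and 2 were lower, RRP42 and CCR4b, against 32.2% and 17.5% of features. Without sgd library 1 alone, the log2 change was -0.23 for RRP42, against -0.62 with all libraries, and -0.31 for CCR4b, against -0.52. It was 0.64 for RRP45A, against 0.41 with all libraries, and 0.52 for XRN2, against 0.29. In that setting the median of all features was also higher, 0.29 against 0.13 with all libraries. The moves of these 4 genes include that shift.

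**Figure D2:**
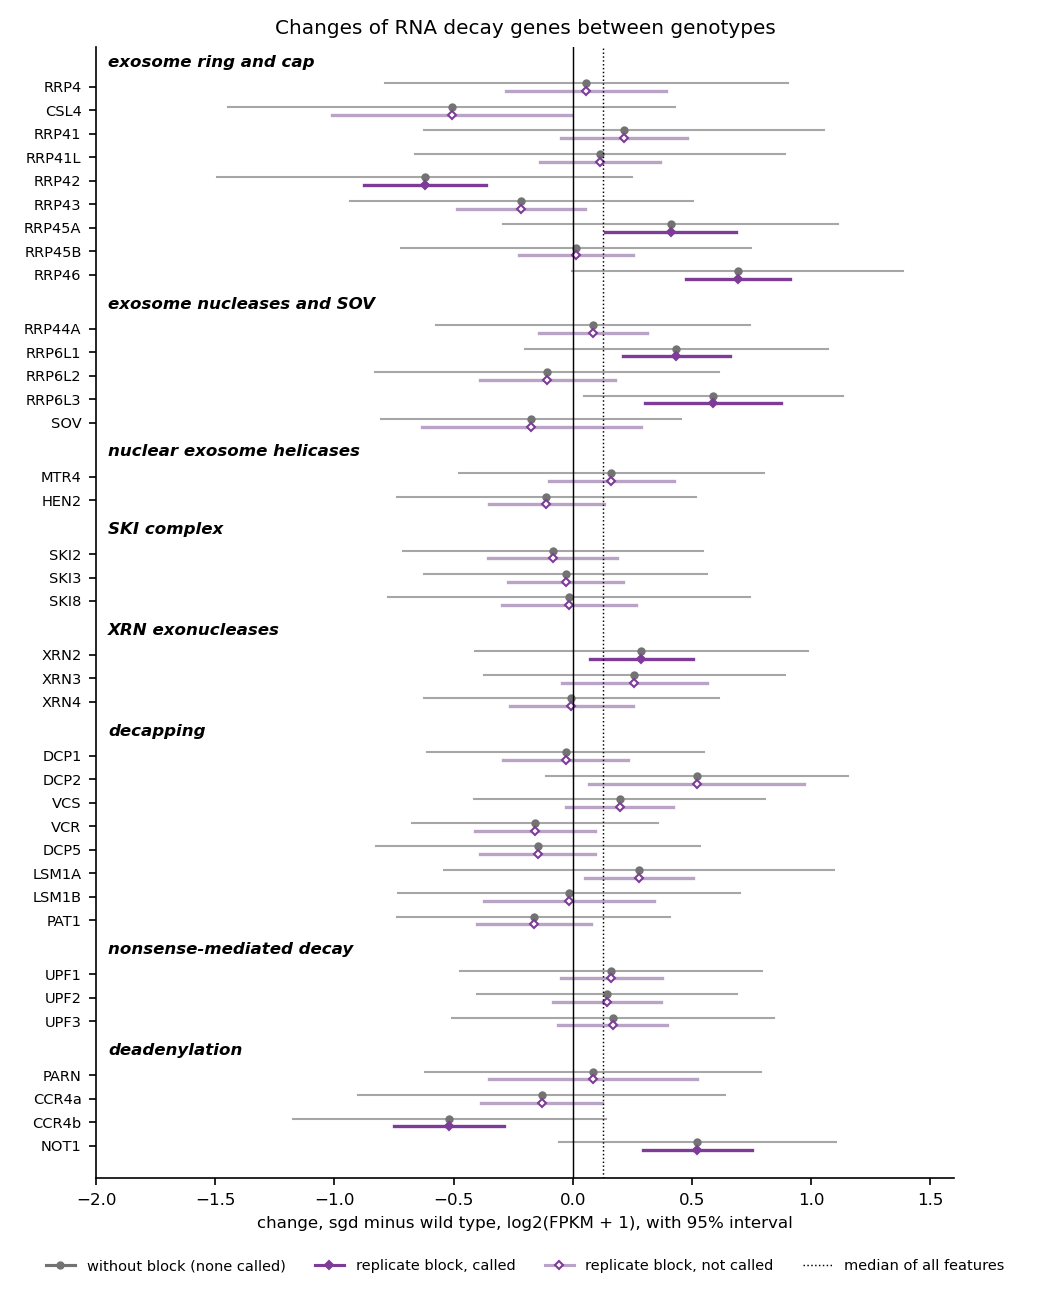
Log2 change (sgd minus wild type, on log2(FPKM + 1)) of each of 37 genes with its 95% interval, without a block (grey, above) and with the library number as a block (purple, below, filled where called), and the median of all features as a dotted line. Without the block none is called, and with it 6 are called higher and 2 lower.

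Several of the genes are copies with related coding sequences. Coding sequences of RRP45A and RRP45B were identical at 89.6% of aligned bases, VCS and VCR at 89.3%, CCR4a and CCR4b at 75.3%, LSM1A and LSM1B at 74.7%, XRN2 and XRN3 at 69.8% and MTR4 and HEN2 at 63.6%, in RefSeq annotation of TAIR10.1. The longest identical run of 3 pairs is shown in capitals, with 12 flanking bases on each side in lower case. Only a read lying wholly inside a run would fit both copies equally there. It was 60 bases for RRP45A (chr3:4157552-4157635, plus strand) and RRP45B (chr3:22355576-22355659, plus strand), inside 1 coding exon of each. It was 67 bases for VCS (chr3:4307542-4307632, plus strand) and VCR (chr3:4300912-4301002, plus strand), again inside 1 coding exon. It was 20 bases for CCR4a (chr3:21653424-21653743, minus strand) and CCR4b (chr3:21663307-21663544, minus strand), where the shown stretch crosses an intron that is left out.
RRP45A: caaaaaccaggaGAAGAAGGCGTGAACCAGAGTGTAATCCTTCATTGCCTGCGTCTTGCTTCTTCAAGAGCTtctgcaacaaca
RRP45B: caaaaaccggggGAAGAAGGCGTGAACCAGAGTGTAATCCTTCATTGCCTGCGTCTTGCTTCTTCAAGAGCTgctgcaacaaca
VCS: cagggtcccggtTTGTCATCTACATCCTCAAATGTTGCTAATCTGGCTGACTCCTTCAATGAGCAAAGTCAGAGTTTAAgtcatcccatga
VCR: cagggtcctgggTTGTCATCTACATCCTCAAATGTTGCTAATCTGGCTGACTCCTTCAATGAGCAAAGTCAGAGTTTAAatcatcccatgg
CCR4a: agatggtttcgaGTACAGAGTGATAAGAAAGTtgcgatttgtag
CCR4b: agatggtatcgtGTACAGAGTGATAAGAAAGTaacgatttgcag
Fragment lengths fitted along with the depth were 190, 350 and 350 bases in sgd libraries and 210, 210 and 270 bases in wild-type libraries. These are longer than each of the runs, but they do not tell how long the reads were. How the fitted lengths bear on FPKM of short transcripts was not tested. How many reads fell in such runs is not known from FPKM, so the effect on the values of these copies was not tested.

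The ring and cap of the exosome, with 9 genes, held members on opposite sides: with the block RRP46 and RRP45A were higher in sgd and RRP42 was lower. RRP46 (AT3G46210), an RNase PH-type ring subunit, had 43.7, 71.2 and 68.0 FPKM in the 3 sgd libraries, against 26.7, 42.2 and 43.0 FPKM in the 3 wild-type libraries. Every sgd library lay above every wild-type library, and the log2 change was 0.69 (SE 0.31, limma adjusted p = 0.166, and SE 0.08, adjusted p = 0.00738 with the block). RRP42 (AT3G07750), another ring subunit, had 8.08, 19.1 and 19.6 FPKM in the 3 sgd libraries, against 14.1, 28.8 and 29.5 FPKM in the 3 wild-type libraries. The groups overlapped, with both first libraries low, and each sgd library was below the wild-type library of its number. The log2 change of RRP42 was -0.62 (SE 0.39, limma adjusted p = 0.337, and SE 0.10, adjusted p = 0.0123 with the block). CSL4 (AT5G38890), an RNA-binding cap subunit, had 9.66, 30.1 and 29.0 FPKM in the 3 sgd libraries, against 20.6, 34.4 and 36.4 FPKM in the 3 wild-type libraries. Its change, -0.51, did not pass in either fit (limma adjusted p = 0.484, and 0.0937 with the block), and sgd library 1 was its lowest value. The change was -0.0015 without sgd library 1, where the median of all features was 0.29, against 0.13 with all libraries. It was -0.25 without both replicate 1 libraries, where that median was 0.14.

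RRP45A (AT3G12990) and RRP45B (AT3G60500) are copies of one ring subunit, and RRP45B is also known as CER7 for its role in stem wax formation. RRP45A had 26.1, 39.6 and 45.4 FPKM in the 3 sgd libraries, against 19.0, 33.6 and 30.5 FPKM in the 3 wild-type libraries. Its groups overlapped, and the log2 change was 0.41 (SE 0.32, limma adjusted p = 0.444, and 0.0363 with the block). With median-ratio scaling and the block RRP45A was not called (limma adjusted p = 0.124), though its groups were apart on that scale. RRP45B had 18.15, 32.8 and 30.5 FPKM in the 3 sgd libraries, against 17.5, 31.1 and 32.4 FPKM in the 3 wild-type libraries, a log2 change of 0.01 whose blocked 95% interval ran from -0.23 to 0.25. The other 4 subunits passed neither test: RRP41 (AT3G61620) at 42.6 ± 16.7 FPKM in sgd and 35.7 ± 11.1 in wild type, RRP41L (AT4G27490), another RRP41-type gene, at 29.6 ± 10.35 in sgd and 26.9 ± 8.10 in wild type, RRP4 (AT1G03360), a cap subunit, at 31.3 ± 13.9 in sgd and 28.7 ± 8.56 in wild type, and RRP43 (AT1G60080), a ring subunit, at 12.2 ± 4.12 in sgd and 14.2 ± 4.08 in wild type (SD, n = 3 each).

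Each ring and cap gene was also expressed as a share of the summed FPKM of the 9 genes. Scaling between libraries does not touch this measure. These are shares of RNA and do not give the proportions of subunits in the assembled exosome. The sum was 171, 324 and 343 FPKM in sgd libraries and 168, 287 and 302 FPKM in wild-type libraries. RRP46 made up 22.4% ± 2.90 of the sum in sgd and 14.96% ± 0.888 in wild type (SD, n = 3 each). RRP45A made up 13.6% ± 1.55 in sgd and 11.05% ± 0.822 in wild type. RRP42 made up 5.45% ± 0.637 in sgd and 9.41% ± 0.881 in wild type. CSL4 made up 7.80% ± 1.92 in sgd and 12.1% ± 0.173 in wild type, and RRP43 4.39% ± 0.227 in sgd and 5.66% ± 0.177 in wild type. In these 5 of 9 shares the groups did not overlap, where 27.7% of features after median-ratio scaling had sgd higher and 28.9% sgd lower without overlap. RRP46 held the largest share in all 3 sgd libraries and in wild-type libraries 1 and 2, and in wild-type library 3 it stood at 14.24%, next to RRP41 at 14.31%. Each of the 5 shares without overlap had an exact two-sided permutation p of 0.1, the smallest that 3 against 3 allows, and 0.154 after adjustment over the 20 shares computed here and for gene families below, so none could pass. Shares of one sum are not independent of each other, and RRP40, the remaining cap subunit, was not a member.

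**Figure D3:**
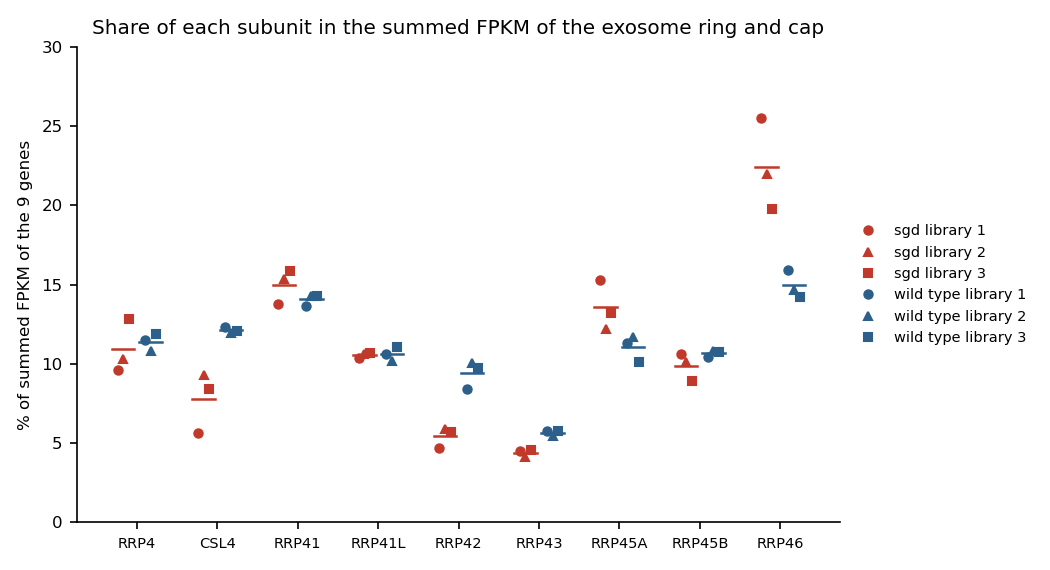
Share of each of 9 ring and cap genes in their summed FPKM, in percent, with one point per library, sgd (red) left of wild type (blue), and bars for the group means. RRP46 and RRP45A have all sgd points above the wild-type points, and CSL4, RRP42 and RRP43 have all sgd points below.

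Of the 5 nuclease genes, RRP6L1 and RRP6L3 were higher in sgd with the block, and the other 3 passed in neither fit. RRP6L3 (AT2G32415), the RRP6-type exonuclease reported in the cytoplasm of Arabidopsis, was the lowest member in wild type, with 12.3, 14.9 and 14.5 FPKM in the 3 sgd libraries, against 7.18, 10.08 and 9.66 FPKM in the 3 wild-type libraries. All sgd values lay above all wild-type values, and the log2 change was 0.59 (SE 0.25, limma adjusted p = 0.133, and 0.0169 with the block). RRP6L1 (AT1G54440), a nuclear RRP6-type protein, had 25.3, 36.8 and 38.2 FPKM in the 3 sgd libraries, against 18.4, 26.4 and 28.7 FPKM in the 3 wild-type libraries. The groups overlapped through sgd library 1, and the log2 change was 0.44 (SE 0.29, limma adjusted p = 0.357, and 0.0194 with the block). RRP6L2 (AT5G35910), the nuclear form known from ribosomal RNA processing, had 32.5, 59.4 and 59.4 FPKM in the 3 sgd libraries, against 40.8, 58.0 and 61.0 FPKM in the 3 wild-type libraries, a log2 change of -0.11 that passed in neither fit. RRP44A (AT2G17510), a nuclease that binds under the ring, had 26.3 ± 6.13 FPKM in sgd and 24.8 ± 6.12 FPKM in wild type. SOV (AT1G77680), a related cytoplasmic exonuclease that acts without the ring, had 13.0 ± 4.08 FPKM in sgd and 14.3 ± 1.14 FPKM in wild type (SD, n = 3 each). Neither of these passed, and the value of SOV in sgd library 1, 8.31 FPKM, was under the other 5.

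The helicases that hand RNA to the exosome showed no call in either fit. MTR4 (AT1G59760), the nucleolar helicase, had 20.3, 32.9 and 29.7 FPKM in the 3 sgd libraries, against 18.6, 26.3 and 28.6 FPKM in the 3 wild-type libraries. HEN2 (AT2G06990), its nucleoplasmic relative, had 15.1, 22.1 and 22.4 FPKM in the 3 sgd libraries, against 15.9, 23.6 and 25.3 FPKM in the 3 wild-type libraries. Their log2 changes were 0.16 and -0.11, and with the block the 95% intervals ran from -0.10 to 0.43 for MTR4 and from -0.35 to 0.13 for HEN2. The 3 SKI genes, for the helicase SKI2 (AT3G46960), the scaffold SKI3 (AT1G76630) and the WD-repeat protein SKI8 (AT4G29830), also called VIP3 for its part in flowering control, had log2 changes between -0.08 and -0.01. SKI2 averaged 17.1 FPKM in sgd and 17.98 FPKM in wild type, SKI3 18.8 FPKM in sgd and 19.2 FPKM in wild type, and SKI8 34.7 FPKM in sgd and 34.3 FPKM in wild type. With the block the 3 intervals together spanned -0.35 to 0.27.

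Of the XRN exonucleases, XRN2 was higher in sgd with the block, and XRN3, also nuclear, and the cytoplasmic XRN4 passed in neither fit. XRN2 (AT5G42540) had 32.1, 51.9 and 52.6 FPKM in the 3 sgd libraries, against 26.1, 42.5 and 42.7 FPKM in the 3 wild-type libraries. Each sgd library was close to the same multiple of the wild-type library of its number, 1.23, 1.22 and 1.23, where the median feature had 1.08, 1.11 and 1.096. The log2 change was 0.29 (SE 0.32, limma adjusted p = 0.613, and 0.0477 with the block). With median-ratio scaling and the block XRN2 was not called, and its groups overlapped on that scale. XRN3 (AT1G75660) had 45.1, 55.3 and 53.0 FPKM in the 3 sgd libraries, against 31.4, 49.5 and 49.0 FPKM in the 3 wild-type libraries, with no call (limma adjusted p = 0.615, and 0.137 with the block). XRN4 (AT1G54490), the cytoplasmic enzyme that degrades decapped mRNA and is also known as EIN5, had 34.2, 42.4 and 44.1 FPKM in the 3 sgd libraries, against 30.6, 46.3 and 45.6 FPKM in the 3 wild-type libraries. Its log2 change was -0.01, with a blocked 95% interval of -0.26 to 0.25.

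None of the 8 decapping genes was called in either fit. DCP2 (AT5G13570), the decapping enzyme, had 34.7, 33.2 and 42.0 FPKM in the 3 sgd libraries, against 17.7, 29.9 and 29.7 FPKM in the 3 wild-type libraries. All sgd values lay above all wild-type values, but by unequal steps, with same-number ratios of 1.96, 1.11 and 1.41. The groups overlapped after median-ratio scaling, which gave 42.6, 27.7 and 34.5 in the sgd libraries and 23.8, 28.4 and 27.2 in the wild-type libraries. The log2 change was 0.52 (SE 0.29, limma adjusted p = 0.261, and SE 0.17, adjusted p = 0.0688 with the block). DCP1 (AT1G08370), its activator, averaged 31.95 FPKM in sgd and 32.5 FPKM in wild type. VCS (AT3G13300), the scaffold of the complex, had 41.2, 56.3 and 56.0 FPKM in the 3 sgd libraries, against 36.7, 46.4 and 50.3 FPKM in the 3 wild-type libraries. VCR (AT3G13290), its tandem copy, had 12.4, 14.5 and 14.5 FPKM in the 3 sgd libraries, against 14.1, 16.2 and 16.3 FPKM in the 3 wild-type libraries. The log2 changes of these copies were 0.20 and -0.16.

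The activators of decapping included the most abundant members. DCP5 (AT1G26110) had the highest level of the 38 in both genotypes, 107 ± 14.7 FPKM in sgd and 119 ± 23.8 FPKM in wild type (SD, n = 3 each). LSM1A (AT1G19120), of the LSM1-7 ring that binds shortened mRNA tails, had 65.4, 118 and 124 FPKM in the 3 sgd libraries, against 55.3, 91.1 and 106 FPKM in the 3 wild-type libraries (log2 change 0.28, limma adjusted p = 0.687, and 0.0600 with the block). Its copy LSM1B (AT3G14080) had 19.7, 35.8 and 40.6 FPKM in the 3 sgd libraries, against 24.4, 36.3 and 33.6 FPKM in the 3 wild-type libraries. PAT1 (AT1G79090), which joins the LSM ring to the decapping enzyme, averaged 26.6 FPKM in sgd and 29.9 FPKM in wild type.

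Of the nonsense-mediated decay genes, UPF1, UPF2 and UPF3 passed neither test, and their log2 changes lay between 0.14 and 0.17. UPF1 (AT5G47010), the central helicase, averaged 65.3 ± 11.1 FPKM in sgd and 58.3 ± 10.07 FPKM in wild type (SD, n = 3 each). UPF2 (AT2G39260) and UPF3 (AT1G33980), which link UPF1 to the mark left by splicing, averaged 28.05 and 52.3 FPKM in sgd and 25.3 and 46.5 FPKM in wild type. With the block, the 3 intervals together spanned -0.08 to 0.40.

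Among the deadenylation genes, NOT1 (AT1G02080) and CCR4b (AT3G58580) lay on opposite sides. NOT1, the large scaffold of the CCR4-NOT complex, had 78.9, 76.4 and 90.6 FPKM in the 3 sgd libraries, against 54.3, 56.4 and 59.0 FPKM in the 3 wild-type libraries. The groups were apart on this scale, but they overlapped after median-ratio scaling, which gave 96.8, 63.8 and 74.5 in the sgd libraries and 72.8, 53.7 and 54.0 in the wild-type libraries. Its log2 change was 0.52 (SE 0.26, limma adjusted p = 0.215, and SE 0.09, adjusted p = 0.0137 with the block). CCR4b, a deadenylase gene, had 13.7, 21.1 and 22.3 FPKM in the 3 sgd libraries, against 19.99, 30.5 and 32.5 FPKM in the 3 wild-type libraries. The groups overlapped, but sgd was 0.68, 0.69 and 0.69 times the wild-type library of the same number, and the log2 change was -0.52 (SE 0.30, limma adjusted p = 0.283, and 0.0142 with the block). CCR4a (AT3G58560), its relative, had 35.95, 69.6 and 62.7 FPKM in the 3 sgd libraries, against 41.8, 68.1 and 72.7 FPKM in the 3 wild-type libraries, with no call (log2 change -0.13). PARN (AT1G55870), a poly(A) ribonuclease whose Arabidopsis mutant ahg2 is oversensitive to abscisic acid, averaged 13.65 ± 5.17 FPKM in sgd and 12.2 ± 2.02 FPKM in wild type (SD, n = 3 each).

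Shares of one copy were taken within pairs and families, including those whose shared runs are shown above. Their groups did not overlap in 8 of 11 cases (5 with sgd lower, 3 with sgd higher). For a pair only 1 copy was counted, and the other goes the opposite way, so the direction depends on that choice. Shares within the RRP6L family and within the XRN family are not independent. Single features, which are not shares, had groups without overlap after median-ratio scaling in 28.9% with sgd lower and 27.7% with sgd higher. RRP6L2 made up 50.9% ± 3.99 of the 3 RRP6-like genes in sgd and 61.4% ± 0.0488 in wild type, where RRP6L1 made up 34.4% ± 1.53 in sgd and 28.2% ± 0.615 in wild type. CCR4b made up 25.7% ± 2.20 of the CCR4 pair in sgd and 31.4% ± 0.823 in wild type. HEN2 made up 41.9% ± 1.56 of the helicase pair in sgd and 46.8% ± 0.622 in wild type, and VCR 21.4% ± 1.504 of the VCS pair in sgd and 26.1% ± 1.67 in wild type. RRP45A made up 57.8% ± 2.73 of the RRP45 pair in sgd and 50.8% ± 1.97 in wild type, and XRN4 29.5% ± 1.18 of the XRN genes in sgd and 33.8% ± 0.794 in wild type (SD, n = 3 for each share). RRP6L3 was the other share without overlap, and LSM1B, XRN2 and XRN3 overlapped. As for the ring, the exact permutation p of each share without overlap was 0.1, or 0.154 after adjustment over the 20 shares. Without sgd library 1 the gap in the RRP6L2 share was -8.20 percentage points, against -10.5 with it.

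**Figure D4:**
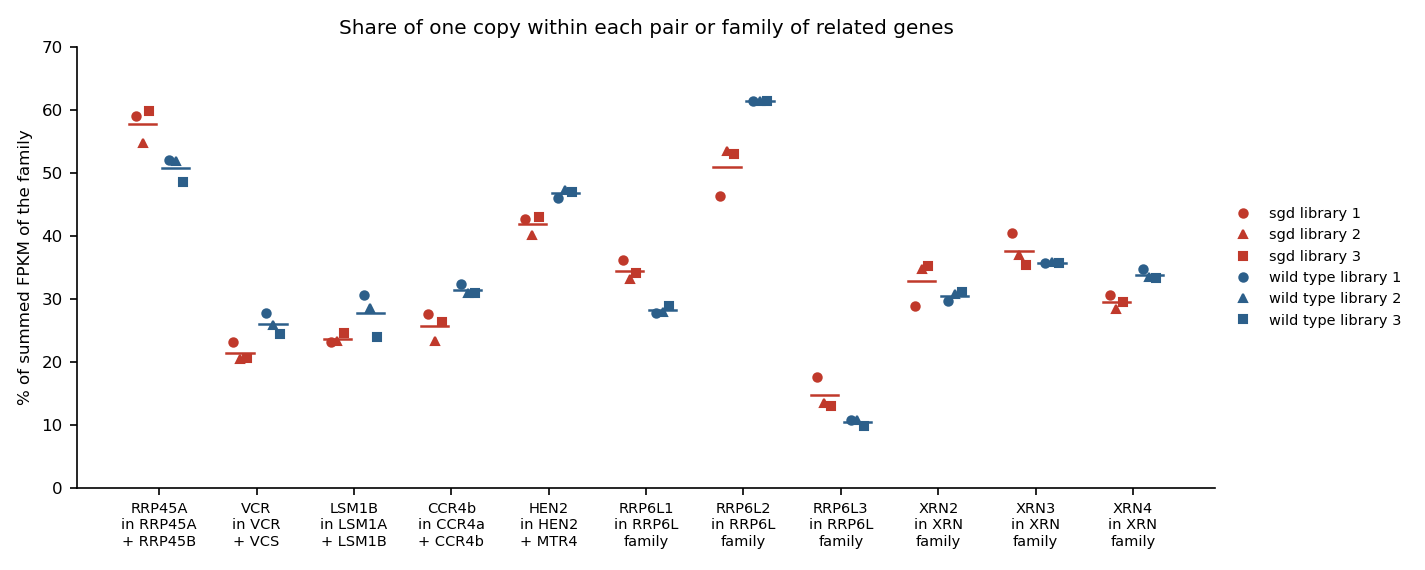
Share of one copy in the summed FPKM of its pair or family, in percent, with one point per library, sgd (red) left of wild type (blue), and bars for the group means. The sgd points of RRP6L2, CCR4b, VCR, HEN2 and XRN4 all lie below the wild-type points, and those of RRP45A, RRP6L1 and RRP6L3 all lie above.

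Other genes of mRNA decay, a list of 32 that were all tested, gave 2 higher and 0 lower, and 4 higher and 9 lower with the block (all features: 13.3% higher and 4.47% lower, and 26.5% higher and 14.3% lower with the block). URT1, which adds uridines to deadenylated mRNA, had 69.7, 64.4 and 74.4 FPKM in the 3 sgd libraries, against 32.8, 41.1 and 38.9 FPKM in the 3 wild-type libraries. All sgd values lay above all wild-type values, with a log2 change of 0.87 (limma adjusted p = 0.0418, and 0.00893 with the block). The 9 genes for LSM2 to LSM8, the subunits that complete the LSM rings of decapping and of splicing, were singled out after their values were seen. They had a median log2 change of -0.58, with 0 called without the block (0 at an unadjusted p under 0.05 with limma). With the block 7 were lower, where 14.3% of all features were. With median-ratio scaling and the block 8 were lower (20.2% of features), and without both replicate 1 libraries 7 were lower (17.5% of features). In the deposited values 0 of the 9 had all sgd values below all wild-type values, where 8.80% of features did. LSM1A and LSM1B, of the decapping ring, were called in neither fit. Because the 9 were picked from their values, these counts do not test whether they differ as a set.

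The order of levels was similar in both genotypes. DCP5 and LSM1A were the 2 highest in sgd (107 and 103 FPKM) and in wild type (119 and 84.3 FPKM). The lowest means were 12.2 FPKM in sgd (RRP43) and 8.97 FPKM in wild type (RRP6L3). Neighbours in this order differed by less than their spread for most ranks: in wild type CCR4a, UPF1 and NOT1 stood at 60.8 ± 16.7, 58.3 ± 10.07 and 56.6 ± 2.36 FPKM, and in sgd RRP46 and CCR4a at 60.95 ± 15.02 and 56.1 ± 17.8 FPKM (SD, n = 3 each).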

How the data were processed

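The deposited values are FPKM per gene for 6 libraries (3 sgd, 3 wild type), per the file headers. The authors' tools, per the submitters' processing notes and without their roles, were TopHat2 2.1.1, RSEM, cutadapt 1.15, DESeq2 and CASAVA, on build TAIR10. How reads were shared between copies and whether strand was used are not given in the sources used here. Gene names came from the RefSeq table of TAIR10.1, which matched 98.1% of identifiers. It holds 23 of the 38 symbols, and the other 15 (such as CSL4, RRP42 and NOT1) are names in general use. Low FPKM values rise in steps of 1 fragment, and depth was fitted to these steps. Between 94.1% and 96.7% of low values came within 0.2 of whole fragments, so depths are estimates and no count test was run. The estimation and the test were checked on simulated data.

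Features with a mean of at least 1 FPKM entered the fit (limma 3.58.1, R 4.3.3) on log2(FPKM + 1), by lmFit and a trended eBayes (two-sided). P-values were adjusted by Benjamini-Hochberg over all features, with a threshold of 0.05. This scale understates changes of low genes. Whether the 3 libraries of a genotype are separate plants or collections is not stated in the labels. The p-values may therefore rest on technical spread alone. Alternatives changed the pseudocount, filter, scaling, variance model, block and libraries. The gap test after median-ratio scaling and the shares without single libraries were added after seeing the data. The members and lists were chosen with earlier results of these data known. Values of every library are given for members called with or without the block, members whose groups do not overlap, the 3 largest changes each way and related copies, and other decay genes are named only if called without the block, except LSM2 to LSM8, which were singled out after their values were seen. The values of 1 member and 1 other decay gene are not reported here, though the counts include them.

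The library numbers come from the labels, which do not say what they mark. Across genes, departures from the group mean correlated at 0.524, 0.236 and 0.377 between sgd and wild-type libraries of number 1, 2 and 3. The crossed values were 0.431 for sgd library 2 with wild-type library 3, and 0.354 for sgd library 3 with wild-type library 2. All same-number values were over 0.1, so the numbers were taken to pair the samples. The values tie the libraries of number 1, but they do not decide the pairing of numbers 2 and 3, which rests on the labels.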

Additional observations from a re-analysis of the deposited data

How the results depend on the processing

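The fit of the deposited values without the block called no member, so there was no call to keep or lose. Over 18 alternatives, the 684 member values stayed without a call in 643 cases and gained a call in 41, always with the direction of that fit. Of the 643, 73 changed sign, in 22 members and without a call before or after, and 25 members were called in no setting. With the replicate block, 4793 features and 6 members were higher and 2583 and 2 lower. Without both replicate 1 libraries the numbers were 5797 and 7 higher, and 3156 and 2 lower. Rescaling to equal totals gave 4129 features and 3 members higher, and 2626 and 1 lower. Median-ratio scaling gave 3391 features lower, with 3 members higher and 2 lower. Together with the block it gave 3663 features lower, with 3 members higher and 4 lower. Quantile normalization gave 3726 features lower, with 2 members higher and 4 lower. With no filter 412 features were lower and 1 member, NOT1, was higher. Leaving out 1 library gave 1514 to 3505 features higher, 382 to 1022 lower, 0 to 1 member higher (RRP46, without sgd library 1), 0 lower and 14 to 28 members with an interval between -1 and 1. The fewest, 14, came on dropping wild-type library 2, and dropping sgd library 3 left 17. The median change of members ranged from -0.16 to 0.29 over these alternatives. The causes were not tested. Depth was lower in every sgd library than in the wild-type library of its number, and counting error was at most 7.67% for any member. On dropping sgd library 1 the gap in the ring share of CSL4 was -3.25 percentage points, against -4.32 with all libraries.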
